A study of Mus musculus with 20 samples.

Results

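*Pax1* to *Pax9*, the 9 genes of the mouse Pax family, were examined for 5-formylcytosine (5fC) peaks in E11.5 embryos. Each gene was taken with 5 kb on either side of its annotated body on NCBIM37 (mm9), so that 9 of the 22089 protein-coding genes with a unique symbol were described. The 9 windows measured between 17.02 kb (*Pax4*) and 190.302 kb (*Pax5*), 693.62 kb together. The libraries are 5fC pull-downs, in which a cleavable biotin probe reacts with the formyl group so that DNA carrying 5fC can be captured and sequenced. Hindbrain was taken from 4 *Tdg* null and 4 wild-type (WT) embryos, 1 of each genotype from each of 4 litters. Heart, liver and carcass were taken from 2 *Tdg* null and 2 WT embryos, the same embryos for all of these tissues. *Tdg* encodes thymine DNA glycosylase (TDG), and *Tdg* null embryos are homozygous for an allele without its catalytic part, where a drug resistance marker was inserted. All tissues carry this allele, and the parents were heterozygous. The labels name no treatment for either genotype. The second *Tdg* null liver library, which the study set aside for poor quality, held no peak in any of the 9 windows and is left out of every value here, which leaves 19 of 20 libraries and a single *Tdg* null liver. Carcass is what remained of an embryo after dissection and holds many cell types. A tissue library pools its cells, so more cells with 5fC at a site and more 5fC per cell cannot be told apart.

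Pax proteins are transcription factors that bind DNA through a paired domain and direct the formation of organs and tissues in the embryo. *Pax1* and *Pax9*, which lack a homeodomain, act in the sclerotome that forms the vertebrae and in the pharyngeal pouches. *Pax2*, *Pax5* and *Pax8* act at the boundary of midbrain and hindbrain, and *Pax2* and *Pax8* also in the kidney. *Pax3* and *Pax7* mark the dorsal neural tube, the neural crest and the precursors of skeletal muscle, and *Pax4* and *Pax6* act in the endocrine pancreas, *Pax6* also in the eye and brain. 5fC is formed when TET enzymes oxidise methylated cytosine, and TDG excises it, which makes it an intermediate of active DNA demethylation.

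The sequences shown first are the places in these windows where 5fC peaks recurred. In 30 stretches, 21.3 kb or 3.07% of the windows, a peak was present in all 6 *Tdg* null libraries of hindbrain and carcass. Of the 30, 23 were wholly intronic, 6 touched an exon and 1 lay downstream of *Pax5*, and 10 were also under a peak of at least 1 WT library. In these genes the stretch within an intron and outside CpG islands (CGIs) that the most WT libraries shared was chosen, with ties decided by CpG content, and its central 300 bases are printed. Those of *Pax3*, *Pax5*, *Pax7* and *Pax8* are shown. All are read from NCBIM37, 5′ to 3′ on the strand of the gene, with each CpG in capitals because CpG is the site that carries methylation and its oxidised forms.
*Pax3*, chr1:78156101-78156400, minus strand: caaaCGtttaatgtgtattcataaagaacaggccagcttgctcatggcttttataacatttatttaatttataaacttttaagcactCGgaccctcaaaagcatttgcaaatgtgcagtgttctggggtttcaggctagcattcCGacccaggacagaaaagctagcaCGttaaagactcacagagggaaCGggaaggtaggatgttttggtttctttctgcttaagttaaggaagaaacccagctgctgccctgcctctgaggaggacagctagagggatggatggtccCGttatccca
*Pax5*, chr4:44613601-44613900, minus strand: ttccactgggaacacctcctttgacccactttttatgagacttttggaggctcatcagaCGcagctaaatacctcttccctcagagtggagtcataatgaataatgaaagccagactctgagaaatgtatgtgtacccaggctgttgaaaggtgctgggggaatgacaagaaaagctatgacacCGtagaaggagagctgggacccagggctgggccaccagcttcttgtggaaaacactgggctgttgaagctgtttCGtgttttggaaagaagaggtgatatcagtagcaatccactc
*Pax7*, chr4:139351801-139352100, minus strand: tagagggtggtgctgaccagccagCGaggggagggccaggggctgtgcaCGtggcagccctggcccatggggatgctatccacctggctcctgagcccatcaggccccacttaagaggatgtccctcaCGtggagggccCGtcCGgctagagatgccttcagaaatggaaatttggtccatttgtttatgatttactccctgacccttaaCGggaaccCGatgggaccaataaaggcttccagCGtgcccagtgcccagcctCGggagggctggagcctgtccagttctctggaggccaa
*Pax8*, chr2:24283651-24283950, minus strand: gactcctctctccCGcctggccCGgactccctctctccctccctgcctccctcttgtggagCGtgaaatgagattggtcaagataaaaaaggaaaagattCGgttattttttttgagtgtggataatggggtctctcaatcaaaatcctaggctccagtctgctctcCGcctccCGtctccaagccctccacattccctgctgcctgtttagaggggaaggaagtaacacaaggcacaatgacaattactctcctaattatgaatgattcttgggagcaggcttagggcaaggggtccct

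These sequences lie far inside their genes. The stretch of *Pax3* was centred 37.5 kb from the gene start, that of *Pax5* 110.6 kb, that of *Pax7* 37.5 kb and that of *Pax8* 47.3 kb. The stretch in *Pax5* was under peaks of 3 WT libraries, 1 hindbrain and both carcasses. The printed bases hold 6 CpGs in *Pax3*, 3 in *Pax5*, 9 in *Pax7* and 6 in *Pax8*. When the 9 windows were cut into 2306 tiles of the same length, the median tile held 3 CpGs and 93.1% of tiles held at least 1. Over all 30 recurrent stretches the density was 18.3 CpGs per kb, against 14.7 per kb in the whole windows and 54.2 per kb in their CGIs.

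The 300 bases before the gene starts of *Pax3* and *Pax5* are shown for contrast, because they are richer in CpG and were under no peak in any of the 19 libraries.
*Pax3*, chr1:78193710-78194009, minus strand: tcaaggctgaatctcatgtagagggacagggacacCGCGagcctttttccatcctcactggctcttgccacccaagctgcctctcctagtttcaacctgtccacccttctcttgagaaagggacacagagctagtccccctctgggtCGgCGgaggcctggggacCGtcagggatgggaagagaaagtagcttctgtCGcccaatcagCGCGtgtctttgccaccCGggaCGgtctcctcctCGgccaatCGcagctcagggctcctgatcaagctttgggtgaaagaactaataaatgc
*Pax5*, chr4:44724319-44724618, minus strand: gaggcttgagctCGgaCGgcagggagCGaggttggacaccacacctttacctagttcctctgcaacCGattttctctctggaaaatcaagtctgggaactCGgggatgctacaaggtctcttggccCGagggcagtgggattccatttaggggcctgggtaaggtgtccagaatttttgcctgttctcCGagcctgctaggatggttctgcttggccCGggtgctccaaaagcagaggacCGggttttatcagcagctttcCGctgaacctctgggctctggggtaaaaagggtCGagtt

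They hold 12 CpGs in *Pax3* and 11 in *Pax5*. The contrast was smaller in the other genes with a printed stretch. The same bases, not shown, hold 13 CpGs before *Pax7* and 7 before *Pax8*, against 9 and 6 in their stretches. The median over the same 300 bases of all 22089 genes was 9 CpGs, and 93.9% of these genes had at least 1.

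Peaks covered between 0.0349% and 8.09% of the genome in the 19 libraries, and each *Tdg* null library had a larger covered length than each WT library. The files hold the positions of peaks and no heights or read counts, so the depth of the libraries is unknown and the cover of a window is a length and not an amount of 5fC. Neither the deletion nor the tissue of a library can be checked from these positions. The 9 Pax windows together were covered over 8.66%, 6.69%, 7.80% and 8.35% of their length in *Tdg* null hindbrain replicates 1 to 4, a mean of 7.88% ± 0.868 (SD, n = 4). In *Tdg* null carcass they were covered over 11.7% and 14.2%, in *Tdg* null heart over 4.76% and 1.93%, and in the *Tdg* null liver over 1.80%. Cover was thus lowest in heart and liver and did not overlap between hindbrain and either heart or carcass.

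Set against the whole genome of the same library, the windows were covered 2.22 to 2.50 times as densely in *Tdg* null hindbrain and 1.87 and 2.16 times in *Tdg* null carcass. In *Tdg* null heart the ratios were 0.588 and 0.531, and in *Tdg* null liver 0.594. In WT carcass the ratio was 0.845 in both libraries, and in the WT hindbrains it was 0, 0.735, 1.08 and 0. Over the whole genome *Tdg* null heart replicate 1 had the widest cover of all libraries, 8.09%, while heart replicate 2, at 3.64%, lay below both *Tdg* null carcasses (5.39% and 7.55%) and below hindbrain replicate 4 (3.67%). Gene windows as a whole did not show this order, since all 22089 windows together were covered over 4.28% ± 0.563 (SD, n = 4) in *Tdg* null hindbrain, 8.14% ± 1.86 in carcass and 8.74% ± 4.35 in heart (SD, n = 2 each). These ratios are descriptions and were not tested. WT libraries held few peaks in the windows, 0, 3, 6 and 0 in the 4 hindbrains, 9 and 7 in the carcasses, 1 and 0 in the hearts and 3 and 0 in the livers.

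**Figure D1:**
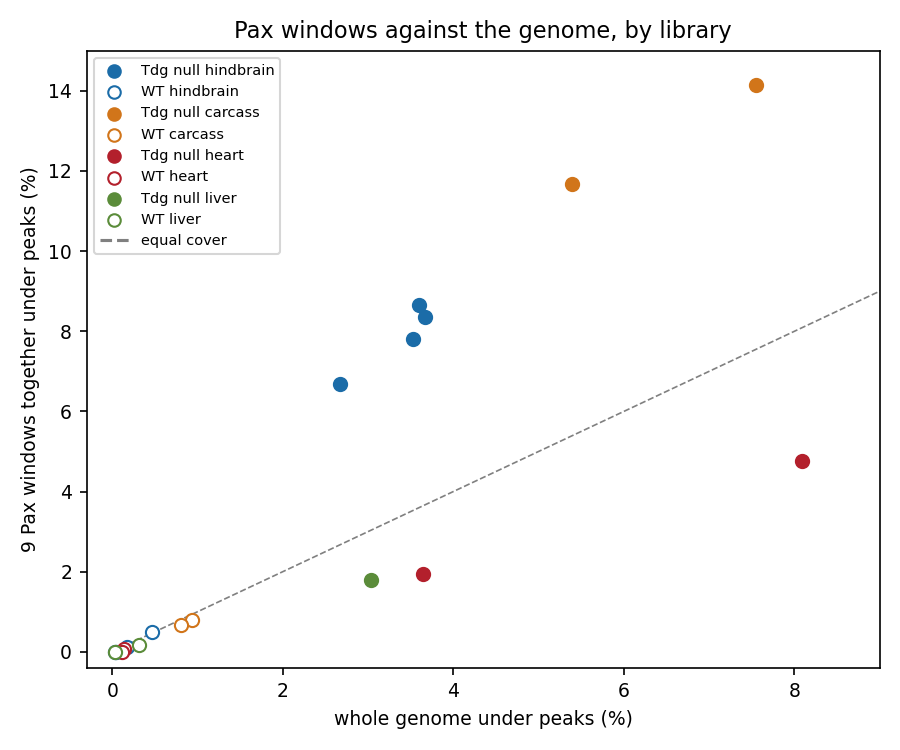
Share of the 9 Pax windows under 5fC peaks (vertical axis, percent) against the share of the whole genome under peaks (horizontal axis, percent), 1 point per library, filled for *Tdg* null and open for WT, with the dashed line at equal cover. *Tdg* null hindbrain and carcass lie above the line, with ratios of 1.87 to 2.50, and *Tdg* null heart and liver below it, with ratios of 0.531 to 0.594.

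The 9 genes were also set against the median of all genes. In *Tdg* null hindbrain 7 of the 9 genes had a mean cover above the median of all genes, and the median over the 9 was 5.03% against 2.57% over all genes. In *Tdg* null carcass 8 of 9 lay above it, with a median of 7.46% against 3.51%. In *Tdg* null heart 0 of 9 lay above it, with a median of 2.90% against 5.06%, and in the *Tdg* null liver 4 of 9, with 0.769% against 1.22%.

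*Tdg* null and WT embryos were compared in hindbrain, heart and carcass to ask how far the cover of each gene differed with loss of TDG. Liver, with a single *Tdg* null library, was not tested. Covered bases of each window were tested with limma on the log2(bases + 100) scale over all 22089 genes, with an adjusted p below 0.05 as the threshold, and differences below are on that scale. In hindbrain 8 of the 9 genes were higher in *Tdg* null embryos, all but *Pax4*, against 63.3% of all genes called higher and 0.0272% called lower. In heart 7 of 9 were higher, all but *Pax1* and *Pax4*, against 62.9% of all genes, and in carcass 7 of 9, all but *Pax4* and *Pax5*, against 46.6%. No Pax gene was called lower in *Tdg* null embryos by limma in hindbrain, heart or carcass, where 0.199% of all genes in heart and 0.416% in carcass were called lower. None was lower at an unadjusted p under 0.05 either. Without overlap between genotypes 7 of 9 were higher in heart, against 63.9% of all genes, and 8 of 9 in carcass, against 60.2%. When every library was scaled to the same genome-wide covered length, 8, 3 and 2 of 9 were called higher in hindbrain, heart and carcass, against 43.6%, 38.1% and 16.2% of all genes. Those of heart were *Pax7*, *Pax8* and *Pax9* and those of carcass *Pax1* and *Pax7*, and the median difference of all genes moved from 2.74 to 1.91 in hindbrain, from 3.60 to 2.00 in heart and from 2.26 to 0.45 in carcass. The counts of members are read against these shares, and the values of each gene follow.

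**Figure D2:**
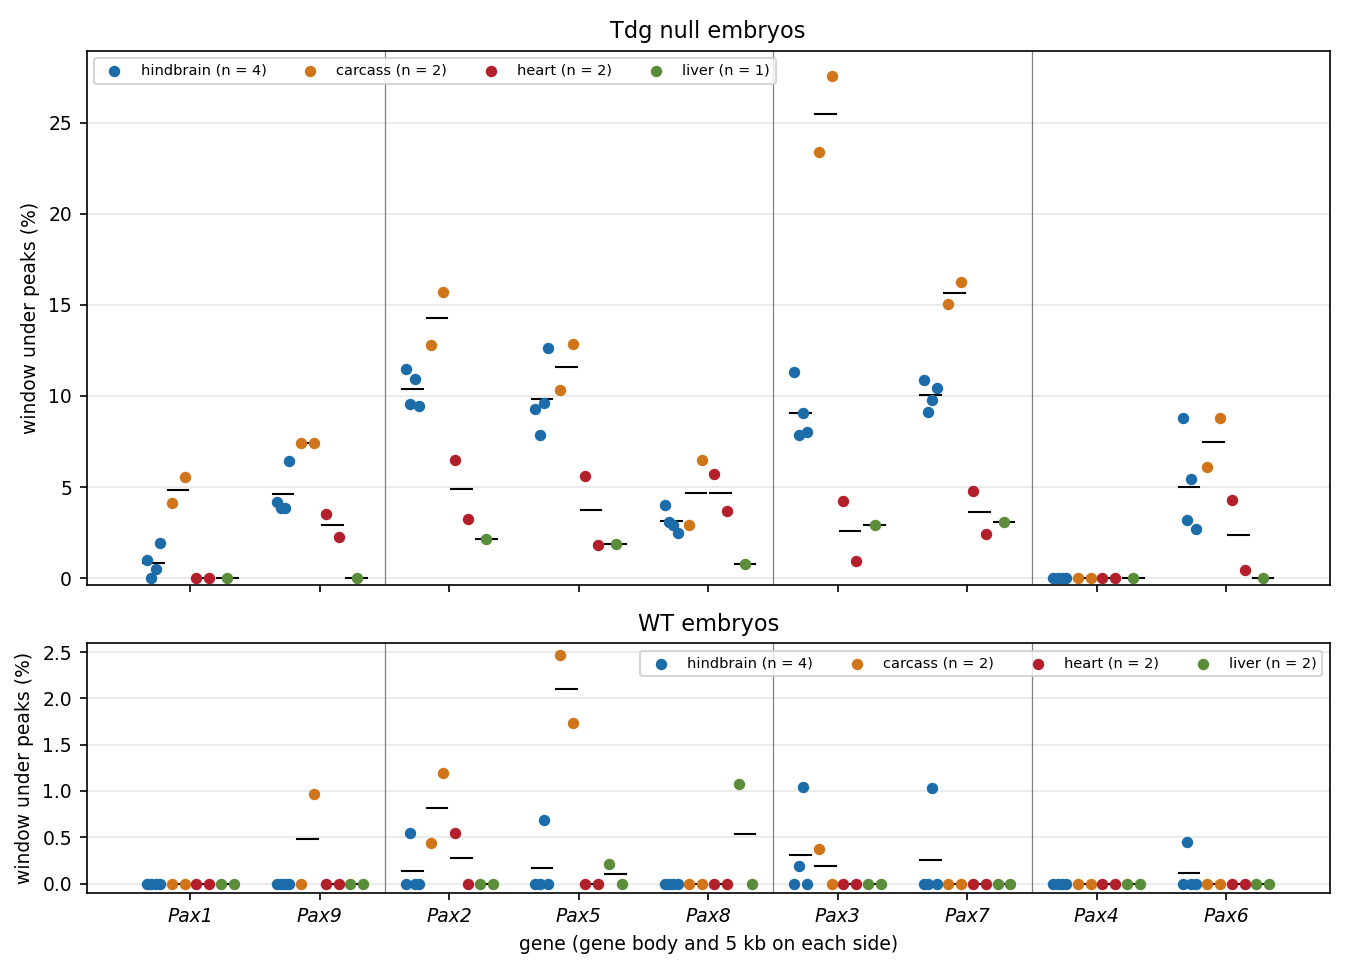
Share of each Pax window under 5fC peaks (percent) in every library, *Tdg* null above and WT below on a smaller scale, coloured by tissue, with black bars at the group means and vertical lines between the subgroups of the family. *Pax3* reached 27.6% in *Tdg* null carcass, *Pax4* was at 0 throughout, and no WT library went above 2.47%.

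*Pax1*, the sclerotome gene, had its cover in *Tdg* null carcass and hindbrain. It was covered over 0.967%, 0%, 0.483% and 1.93% in the *Tdg* null hindbrains and over 4.11% and 5.56% in the *Tdg* null carcasses. It was listed at 0 in both *Tdg* null hearts, in the *Tdg* null liver and in every WT library. Hindbrain and carcass did not overlap, and 1 hindbrain, replicate 2, was at 0 like heart. In carcass it was higher in *Tdg* null than in WT embryos (limma, adjusted p = 0.000243), and also in hindbrain (adjusted p = 0.00603), although the hindbrain call was lost with peaks of at least 600 bp (adjusted p = 0.341) or with the gene body alone (adjusted p = 0.0976). *Pax1* was the only member called between tissues of *Tdg* null embryos, higher in carcass than in hindbrain (difference of hindbrain minus carcass -2.61 ± 0.593 SE, limma adjusted p = 0.0225) and than in heart (adjusted p = 0.00164). Without *Tdg* null carcass replicate 1 or 2 the first of these calls was lost, with adjusted p = 0.0625 and 0.155, and also with scaling (0.0828), a pseudocount of 10 bases (0.157), the number of peaks (0.0958) or 10 kb on each side (0.057). 

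*Pax9*, which acts in teeth, limbs and pharyngeal pouches, was covered over 4.19%, 3.86%, 3.86% and 6.44% in the *Tdg* null hindbrains and over 7.41% in both *Tdg* null carcasses. The *Tdg* null hearts had 3.54% and 2.25%, and the liver was at 0. WT libraries were at 0 except carcass replicate 2 with 0.966%. All *Tdg* null hindbrains lay above all WT hindbrains and the call was made in hindbrain, heart and carcass (limma, adjusted p = 1.09e-06, 0.000102 and 9.42e-05). The heart call was lost with peaks of at least 600 bp (adjusted p = 0.0754) and the carcass call with scaling (adjusted p = 0.178). The windows of *Pax9* and of *Slc25a21*, a mitochondrial carrier gene on the other strand, overlap, so peaks there cannot be given to *Pax9* alone.

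*Pax2*, needed for kidney and optic stalk, had steady cover in hindbrain at 11.5%, 9.54%, 10.95% and 9.43%. The *Tdg* null carcasses had 12.8% and 15.7%, the hearts 6.51% and 3.25%, and the liver 2.17%. The 3 sampled tissues with more than 1 *Tdg* null library thus followed the order carcass, hindbrain, heart without overlap. In WT embryos hindbrain replicate 2 had 0.542% and the others 0, the carcasses 0.434% and 1.19%, and 1 heart 0.542%. *Tdg* null minus WT was 5.94 ± 0.628 (SE) in hindbrain, 4.15 ± 0.888 in heart and 4.09 ± 0.888 in carcass (limma, adjusted p = 4.32e-06, 0.00123 and 0.0025), and the carcass call was lost with a pseudocount of 10 bases (adjusted p = 0.0966). With libraries scaled to the same covered length both calls were lost, at 1.03 in heart (adjusted p = 0.854) and 1.36 in carcass (adjusted p = 0.972).

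*Pax5*, the B-cell lineage factor that also acts at the midbrain-hindbrain boundary, was the member with the most WT peaks. In *Tdg* null hindbrain it was covered over 9.30%, 7.88%, 9.62% and 12.6%, in carcass over 10.4% and 12.9%, in heart over 5.62% and 1.84%, and in liver over 1.89%. The heart call was lost with scaling (limma, adjusted p = 0.0588). The WT carcasses had 2.47% and 1.73%, the highest values of any Pax gene in WT. Of the 29 stretches under WT peaks in the 9 windows, 14 were in *Pax5* and 16 in carcass libraries. *Tdg* null minus WT was 6.59 ± 0.813 (SE) in hindbrain (limma, adjusted p = 1.65e-05) and missed the threshold in carcass at 2.45 ± 1.15 (adjusted p = 0.0998), although the *Tdg* null carcasses lay above both WT carcasses. That carcass call was made with a pseudocount of 1000 bases (adjusted p = 0.00149), on the number of peaks (adjusted p = 0.01) or with peaks of at least 600 bp (adjusted p = 0.0468), and with libraries scaled to the same covered length the difference turned to -0.39 (adjusted p = 1). The difference between the hindbrain and carcass effects was 4.14 ± 1.41 (SE) and missed the threshold as well (limma, adjusted p = 0.143), against 5.36% of all genes called for it.

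*Pax8*, a factor of thyroid and kidney, had values that overlapped among these 3 tissues. *Tdg* null hindbrains had 3.997%, 3.07%, 2.92% and 2.46%, carcasses 2.92% and 6.46%, and hearts 5.69% and 3.69%, and the liver had 0.769%. The means of heart and carcass were both 4.69%. WT hindbrain, heart and carcass were at 0, and WT liver replicate 1, at 1.08%, lay above the single *Tdg* null liver. The gene was called in hindbrain, heart and carcass (limma, adjusted p = 8.05e-06, 6.31e-05 and 0.000128), and the heart call was lost with peaks of at least 600 bp (adjusted p = 0.0699) and the carcass call with scaling (adjusted p = 0.069).

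*Pax3*, which marks dorsal neural tube, neural crest and muscle precursors, had the widest cover of the family in *Tdg* null carcass. The *Tdg* null carcasses were covered over 23.4% and 27.6% of the window, a mean above that of 96.7% of all genes. The *Tdg* null hindbrains had 11.3%, 7.84%, 9.07% and 8.03%, the hearts 4.25% and 0.945%, and the liver 2.93%. No carcass value overlapped a value of another tissue. Between *Tdg* null tissues the limma differences did not pass, at -1.49 ± 0.937 (SE) for hindbrain minus carcass (adjusted p = 0.468), 2.09 ± 0.937 for hindbrain minus heart (adjusted p = 0.136) and -3.59 ± 1.17 for heart minus carcass (adjusted p = 0.0724). A pseudocount of 1000 bases called the first (adjusted p = 0.0244) and the second (0.00341), and peaks of at least 600 bp called the second (0.0164). The third was called under 5 alternatives, without *Tdg* null heart replicate 1 (adjusted p = 0.0282), with no block for the embryo (0.045), on the number of peaks (0.0251), with peaks of at least 600 bp (0.0107) and with a pseudocount of 1000 bases (0.000571). In WT, hindbrain replicates 2 and 3 had 0.189% and 1.04% and carcass replicate 1 had 0.378%. *Tdg* null minus WT was 5.29 ± 0.765 (SE) in hindbrain and 6.92 ± 1.08 in carcass (limma, adjusted p = 6.11e-05 and 0.000243). The carcass call was lost with scaling (adjusted p = 0.0751), as was that of heart (adjusted p = 0.148).

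**Figure D3:**
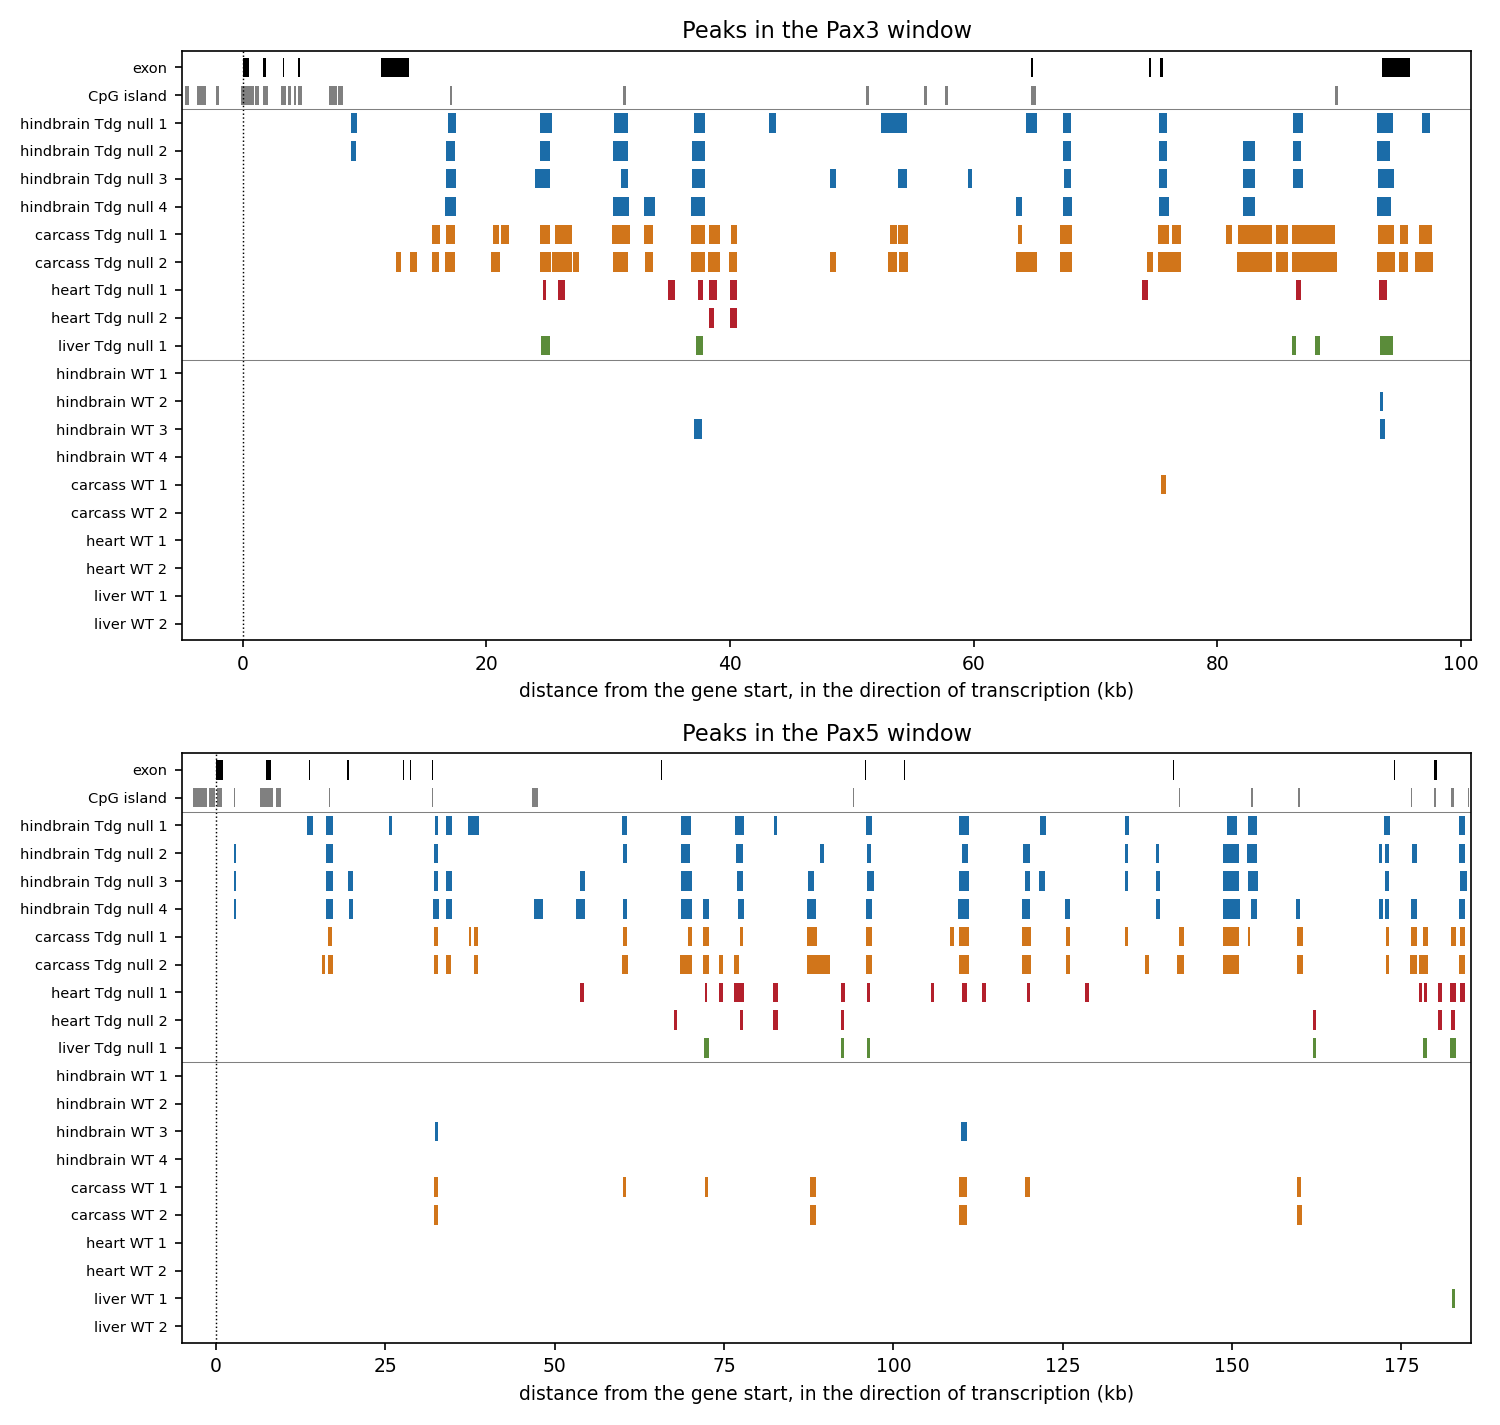
5fC peaks of 19 libraries over the windows of *Pax3* and *Pax5*, 1 row per library, against the distance from the gene start in kb, with exons in black, CpG islands in grey, *Tdg* null libraries in the upper block and WT libraries in the lower. No peak lies in the 5 kb before either start, and the WT peaks sit at places that *Tdg* null libraries also cover.

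*Pax7*, the related gene of the dorsal neural tube and of muscle satellite cells, had peaks in all 9 *Tdg* null libraries used, as had *Pax2*, *Pax3*, *Pax5* and *Pax8*. The *Tdg* null hindbrains had 10.9%, 9.11%, 9.77% and 10.4%, the carcasses 15.03% and 16.2%, the hearts 4.79% and 2.44%, and the liver 3.10%. The only WT library with a peak was hindbrain replicate 3, with 1.03%. The order carcass, hindbrain, heart held without overlap, as in *Pax2* and *Pax3*. *Tdg* null minus WT was 5.86 ± 0.655 (SE) in hindbrain (limma, adjusted p = 7.11e-06), and the gene was called in heart and carcass as well (adjusted p = 0.000329 and 4.01e-05).

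*Pax6*, the eye and forebrain gene, had the largest SD among *Tdg* null hindbrains in percentage points, 2.79, with values of 8.81%, 3.16%, 5.42% and 2.71%. The *Tdg* null carcasses had 6.10% and 8.81% and the hearts 4.29% and 0.452%, and the liver was at 0. Hindbrain and carcass overlapped, and so did hindbrain and heart. In WT only hindbrain replicate 2 had a peak, covering 0.452%. The gene was called in hindbrain, heart and carcass (limma, adjusted p = 4.93e-05, 0.00545 and 0.000252), but the heart call was lost without *Tdg* null heart replicate 1 (adjusted p = 0.087), with scaling (0.275), with a pseudocount of 1000 bases (0.0568) and with peaks of at least 600 bp, where the difference was 0, and the carcass call was lost with scaling (0.0756). Its window also overlaps *Elp4*, a gene on the other strand.

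*Pax4*, a factor of the endocrine pancreas, was listed at 0 in all 19 libraries. Its window is the shortest of the family and shares bases with *Fscn3*, and 13.6% of all genes were at 0 in all 19 libraries too.

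The covered percent was also compared by exact tests, which separated 7 genes and not *Pax1*. For *Pax2*, *Pax3*, *Pax5*, *Pax6*, *Pax7*, *Pax8* and *Pax9* every *Tdg* null hindbrain lay above every WT hindbrain, 7 of 9 genes against 55% of all genes (two-sided exact permutation test, p = 0.0286 each, the smallest that 4 against 4 allow). With libraries scaled to the same covered length 4 of 9 did not overlap. The share of all genes under this scaling is not given here, so that count cannot be set against the 55%. For *Pax1* the exact permutation p was 0.143. With the hindbrains paired by litter, as a replicate block, these 7 genes had an exact permutation p of 0.125, which is the floor for 4 pairs. The tissues of each litter were then averaged, and each pair of embryos of heart, liver and carcass was counted as a litter of its own. That count rests on the study listing these pairs under different litter letters. The same 7 genes were higher in *Tdg* null embryos in 6 of 6 litters, as were 54.7% of all genes (two-sided exact permutation of signs, p = 0.0312 each, the smallest that 6 litters allow). *Pax1* was higher in 5 of 6 litters (exact p = 0.0625). The mean difference over litters was 9.43 percentage points for *Pax2*, 9.90 for *Pax3*, 8.38 for *Pax5* and 9.36 for *Pax7*, and 4.62 for *Pax6*, 3.38 for *Pax8* and 4.39 for *Pax9*.

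Values were then compared between tissues of *Tdg* null embryos. For hindbrain against heart 5 of 9 genes (*Pax2*, *Pax3*, *Pax5*, *Pax7* and *Pax9*) were higher in hindbrain without overlap, against 4.16% of all genes, and 0 of 9 were lower, against 34.7%. By limma none of the 9 was called in either direction, against 3.66% of all genes called higher and 17.5% called lower in hindbrain. At an unadjusted p under 0.05, 2 of 9, *Pax1* and *Pax3*, were higher, and the share of all genes at that threshold is not given here. For heart against carcass 7 of 9, all but *Pax4* and *Pax8*, were higher in carcass without overlap, against 12% of all genes, and 0 of 9 higher in heart, against 24.6%. Of these only *Pax1* was called by limma, against 3.47% of all genes called higher in carcass and 8.43% in heart. At an unadjusted p under 0.05, 4 of 9 were higher in carcass, a threshold to which these shares do not apply. For hindbrain against carcass 5 of 9 (*Pax1*, *Pax2*, *Pax3*, *Pax7* and *Pax9*) were higher in carcass without overlap, against 30.8% of all genes, and *Pax1* alone was called, against 4.08%. None of the 9 was higher in hindbrain than in carcass, without overlap or by limma (0 at an unadjusted p under 0.05), against 3.29% and 1.67% of all genes. These comparisons share the *Tdg* null libraries. The difference between genotypes was called as unlike between hindbrain and heart for 0 of 9 genes by limma, against 9.27% of all genes, and between heart and carcass for *Pax1* alone, against 10.6%. Groups of 2 allow no exact p under 0.05, and genome-wide cover differs between these libraries as given above. When libraries were scaled to the same covered length, hindbrain exceeded carcass in *Pax2*, *Pax5*, *Pax6*, *Pax7*, *Pax8* and *Pax9*, so the order of these tissues depends on scaling for those genes.

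Within the windows, cover was not even. Introns were covered over 9.07% ± 0.880 of their bases in *Tdg* null hindbrain (SD, n = 4) and 14.7% ± 1.73 in carcass (SD, n = 2), and exons over 6.21% ± 1.56 and 7.95% ± 1.30. The exons were covered more than the introns in *Pax3*, *Pax6* and *Pax9* in hindbrain and in *Pax3* and *Pax9* in carcass. In *Pax3* 17.2% of exonic bases were covered on average in *Tdg* null hindbrain and 38.0% in carcass, where introns of the gene had 9.32% and 26.1%. In *Pax9* exons had 10.1% and 11.1% and introns 4.46% and 4.62%, and in *Pax6* exons had 7.52% and 7.24% and introns 5.08% and 10.8%.

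Upstream of the genes there was almost no 5fC peak. The 5 kb before the gene start was at 0 for all 9 genes in each *Tdg* null hindbrain, heart and liver library, while 59.9% of all genes were at 0 in all 4 *Tdg* null hindbrains and all upstream flanks together were covered over 3.39% ± 0.396 (SD, n = 4). In *Tdg* null carcass only *Pax1* and *Pax8* had cover there, each at a mean of 7%, in 1 library. The share of all genes at 0 upstream was 61.8% in *Tdg* null carcass, 55.2% in heart and 81.1% in the single liver. The 5 kb after the gene end was covered over 3.50% ± 1.15 in *Tdg* null hindbrain (SD, n = 4), against 3.59% ± 0.513 over all genes. In *Tdg* null carcass it was 7.56% and 10.9%, against a mean of 5.91% over all genes, in heart 4.44% and 2.89%, against 7.51%, and in the liver 1.78%, against 3.19%. Within 1 kb of any annotated transcript start, cover was 1.10% ± 0.749 in *Tdg* null hindbrain (SD, n = 4) and 1.15% ± 0.354 in carcass (SD, n = 2).

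CGIs of the windows, 58.55 kb in all, were covered less than the bases outside them. In *Tdg* null hindbrain the CGIs were covered over 4.77% ± 1.15 and the other bases over 8.16% ± 0.848 (SD, n = 4), and in carcass over 6.15% ± 0.779 and 13.5% ± 1.85 (SD, n = 2). CGI shores, the 2 kb beside an island, had 7.88% ± 0.811 in hindbrain, near the 8.32% ± 1.01 of the bases beyond them. With a stricter definition of islands, of at least 500 bp and with higher minimums of GC and of observed over expected CpG, cover of islands was 1.84% ± 1.26 in *Tdg* null hindbrain and 0 in each *Tdg* null carcass, heart and liver library. The 26 islands in the window of *Pax6* made up 25.3% of it and were covered over 0.451% in *Tdg* null hindbrain, where the rest of the window had 6.57%. In *Pax8* the islands had more cover than the rest in *Tdg* null hindbrain, 4.595% against 3.08%, and none in carcass, 0% against 4.79%, and in *Pax5* they had 9.21% against 9.89%.

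**Figure D4:**
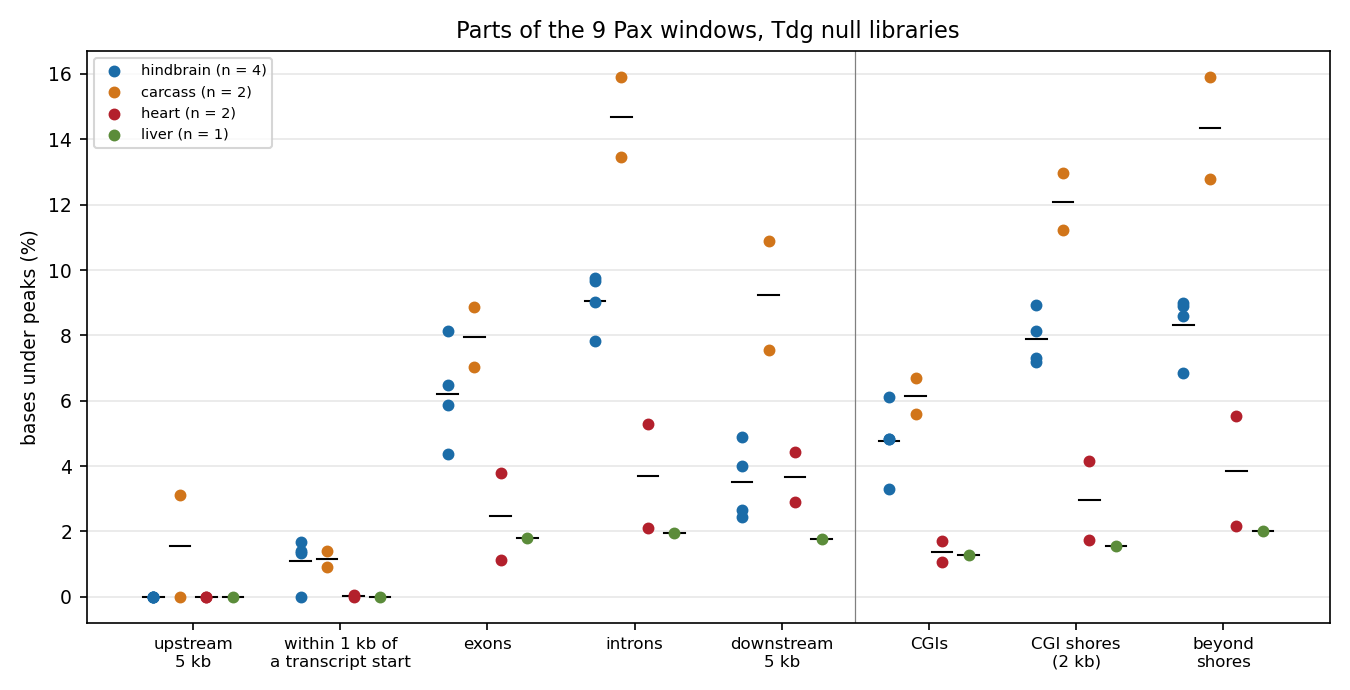
Share of bases under 5fC peaks (percent) in parts of the 9 Pax windows as a whole, 1 point per *Tdg* null library, coloured by tissue, with black bars at the means. Introns reached 15.9% in carcass, the upstream 5 kb stayed at 0 in hindbrain, heart and liver, and CpG islands lay below their shores in each tissue.

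Peaks recurred at the same places within a tissue and between hindbrain and carcass. All 4 *Tdg* null hindbrains shared 32 stretches, 28.1 kb, both carcasses 79 stretches, 71.5 kb, and both hearts 21 stretches, 11.3 kb. No base of the 9 windows was under a peak of all 9 *Tdg* null libraries. Of the 30 stretches shared by hindbrain and carcass, 22 had no peak in either *Tdg* null heart. Both counts are limited by the narrow cover of the windows in the *Tdg* null hearts (4.76% and 1.93%) and liver (1.80%), and no background is given for them. WT peaks lay at the same places: 28 of the 29 WT stretches overlapped a peak of at least 1 *Tdg* null library, 26 one of the same tissue, and 4 an island.

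The genes *Six2* to *Six6*, *Eya1* to *Eya4*, *Dach1* and *Dach2*, which act with Pax factors in eye, ear, kidney and muscle, were taken as the wider network. Of these 11, 8 were higher in *Tdg* null hindbrain (limma), 6 in heart and 6 in carcass, and 0 were lower, with the all-gene shares as given above. In *Tdg* null hindbrain 6 of the 11 had a mean cover above the median of all genes, against 7 of the 9 Pax genes, and in carcass 6 of the 11 against 8 of 9. In *Tdg* null heart it was 4 of the 11 against 0 of 9, and in the *Tdg* null liver 5 of the 11 against 4 of 9. *Eya2*, *Eya1* and *Six5* had the widest cover in *Tdg* null hindbrain, at 7.89% ± 1.23, 7.56% ± 1.14 and 6.86% ± 3.47 (SD, n = 4). *Six2* and *Six6* were listed at 0 in all 19 libraries, as was *Pax4*, and *Dach2* was the next lowest in *Tdg* null hindbrain, at 0.169% ± 0.0655 (SD, n = 4).

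The genes most like the Pax family were sought as those whose covered percent over the 9 *Tdg* null libraries had the highest Pearson correlation with that of the 9 Pax windows together, among 8995 genes with cover in all 9. They were *Bzrap1* (r = 0.990), *Cdh22* (0.985), *Cadps2* (0.981), *Gabrr3* (0.980) and *Tubb1* (0.980). These correlations over 9 libraries describe a shared pattern across tissues and embryos, and the libraries share their total cover. *Cdh22*, a cadherin gene, was covered over 13.1% to 15.1% in *Tdg* null hindbrain, 23.2% and 27.1% in carcass, 10.4% and 2.85% in heart and 2.62% in liver.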

How the data were processed

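5fC peaks were listed in 20 libraries, and 19 were used. Per the labels and the study's methods, the authors trimmed reads with Trim Galore, aligned them to NCBIM37 (mm9) with Bowtie2 and called peaks with MACS per library, with 1e-05 as the p cutoff and 200 bp as the fragment length. The deposited positions are starts and ends in bases on a grid of 100 bp. Read counts were not used here, so precision is limited by the number of libraries.

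Peaks on 21 chromosomes were kept and their bases in each window summed (GENCODE vM1 genes of NCBIM37; Python 3.11.15, numpy 2.4.6, pandas 2.3.3, matplotlib 3.10.9). CGIs were at least 200 bp, with GC of at least 50% and observed over expected CpG above 0.6. log2(bases + 100) was fitted in R 4.3.3 with limma 3.58.1 (statmod 1.5.0), with a mean per group, the embryo as a random block, a trend in eBayes and Benjamini-Hochberg adjustment over all genes. The estimated correlation within embryos was -0.163. The labels give a litter for each hindbrain and a pair for each embryo of the other tissues, and the study's methods state that pairs shared a litter. Same-litter hindbrains correlated between -0.0584 and 0.0439 in their deviations. On simulated data, 98 of 100 genes raised by 4 and 66 of 100 raised by 2 on the log2 scale were called. Named genes were the 9 members, the 3 highest and 3 lowest of the network list in *Tdg* null hindbrain, the 5 most alike, and genes that overlap a Pax window. Members and lists were chosen with earlier results of these data known. 1 gene of the network list and 1 sequence are not reported here.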

Additional observations from a re-analysis of the deposited data

Results flagged for a closer look

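In 4 members 1 WT hindbrain stood apart from 3 at 0, namely replicate 2 for *Pax2* (0.542%) and *Pax6* (0.452%), and replicate 3 for *Pax5* (0.683%) and *Pax7* (1.03%). These replicates also had the most peaks of the WT hindbrains genome-wide, 8989 and 21606 against 1563 in each of the others, and the part of this in the result was not tested. *Pax9* stood apart in *Tdg* null hindbrain replicate 4, at 6.44% against 3.86% to 4.19%. These are 5 of 13 groups of 4 with any spread. Chance marks about 1 group in 20 where values vary freely, a rate that cannot be used for the 4 WT groups, since a lone library above 3 zeros always stands apart.

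The difference between *Tdg* null and WT in *Pax1* was smaller in heart than in carcass, by -4.38 ± 1.04 (SE) on the log2(bases + 100) scale (limma, adjusted p = 0.0182, against 10.6% of all genes called for this difference). Both *Tdg* null hearts and all 4 WT libraries of these tissues were listed at 0, so the value rests on the 2 *Tdg* null carcasses. It missed the threshold without WT carcass replicate 1 (adjusted p = 0.0511), without WT heart replicate 2 (0.0505), with the gene body alone (0.062) and with 10 kb on each side (0.108).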

How the results depend on the processing

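Counts of Pax genes called in *Tdg* null against WT hindbrain (8 of 9) were 7 or 8 under the alternatives tried, and the fit with litter as a fixed replicate block, in which pairs share a litter, called 8 as well and changed no other count between genotypes. Apart from limma calls under scaling, counts under alternatives in this section stand without the share of all genes under the same setting. They show how the members moved, and whether all genes moved alike cannot be read from them. The exact test within litters gave p = 0.125 for the 7 genes without overlap, against 0.0286 unpaired. With the libraries scaled to the same covered length, 3 genes were called in heart and 2 in carcass (7 each as reported), 4 of 9 did not overlap between genotypes in hindbrain (7 as reported), and *Pax5* in carcass turned to -0.39. Under the same scaling 0 genes were called lower in hindbrain than in carcass, against 1.32% of all genes. Without overlap 2 were higher and 2 lower (0 and 5 as reported), and the share of all genes for this count is not given here. Hindbrain minus carcass turned to 0.47 in *Pax2*, 0.68 in *Pax5*, 0.22 in *Pax6*, 0.29 in *Pax7*, 0.40 in *Pax8* and 0.19 in *Pax9*, and hindbrain minus heart to 0.11 in *Pax8*. With peaks of at least 600 bp, 4 genes were called and 4 did not overlap between genotypes in heart, 3 were called higher in hindbrain than in heart (0 as reported) and 3 lower in heart than in carcass (1 as reported), and *Pax8* turned to 1.31 for hindbrain minus heart and -1.87 for heart minus carcass. Family cover was then 0.533% in WT carcass and 1.10% in the *Tdg* null liver. A pseudocount of 1000 called 4 genes higher in hindbrain than in heart, 2 lower in hindbrain than in carcass and 6 lower in heart than in carcass, and a pseudocount of 10 called 0 lower in hindbrain than in carcass. The number of peaks called 1, 0 and 3 in these comparisons and turned *Pax9* to -0.15 for hindbrain minus heart. A filter of at least 4 covered libraries called 1 gene higher in hindbrain than in heart, and no block called 2 lower in heart than in carcass. With 10 kb on each side 0 genes were called lower in hindbrain than in carcass, *Pax8* was at -0.0076 for heart minus carcass and liver cover was 1.60%. With the gene body alone family cover was 8.79% in *Tdg* null hindbrain, 0.845% in WT carcass and 1.94% in the *Tdg* null liver. Stricter islands were covered over 1.84% in *Tdg* null hindbrain, 0% in carcass and 0% in heart.

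Leaving out 1 library gave 0 to 1 genes called higher in hindbrain than in heart (1 without *Tdg* null hindbrain replicate 2 or heart replicate 1), 0 to 1 lower in hindbrain than in carcass (0 without either *Tdg* null carcass) and 1 to 3 lower in heart than in carcass (3 without *Tdg* null heart replicate 1). Without overlap, 0 to 1 were lower in hindbrain than in heart (1 without *Tdg* null hindbrain replicate 1 or heart replicate 2) and 0 to 1 higher in heart than in carcass (1 without *Tdg* null carcass replicate 2). *Pax8* ranged from -1.04 to 0.067 for hindbrain minus carcass and from -0.48 to 0.62 for heart minus carcass. A lone library left in a group is assumed to vary like the others. Of the other alternatives for single genes, 784 kept direction and side of the threshold, 27 gained the call and 34 lost it. The cause of these changes was not tested. Depth is unknown, so a window at 0 holds no listed peak, and whether it holds 5fC cannot be told from these positions.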
